A study of Mus musculus with 2 samples.

Results

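The neurexins, neuroligins and LRRTM proteins are the adhesion proteins through which the presynaptic and the postsynaptic membrane hold on to each other. Of this group, 9 genes were followed here, by taking the rows with the symbols Nrxn2, Nrxn3, Nlgn1, Nlgn2, Nlgn3, Lrrtm1, Lrrtm2, Lrrtm3 and Lrrtm4 among the 55357 gene rows of each count matrix. All 9 had a row in both libraries, and every level below is given by cell class and by library. The data were single-nucleus RNA counts (10x Genomics 3' chemistry, version V3) from mouse hippocampus, with 1 library per group. The first library came from Bcas2F/F mice injected with AAV2/9-Syn-cre, and its genotype label reads Bcas2 knockdown. It is called the library labelled knockdown. The second came from Bcas2F/F mice injected with AAV-vehicle, and its genotype label reads WT, so that its labels do not settle whether the floxed allele was present. It is called the control library. The Syn-cre vector drives the Cre recombinase from a synapsin promoter, a promoter of neurons, and a floxed allele is cut only where Cre acts. The labels give no age, sex, interval after injection, number of mice per library, or pooling.

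Neurexins sit mainly in the presynaptic membrane and bind, across the cleft, neuroligins, LRRTM proteins, cerebellins and several other partners. Neuroligin-1 is known from excitatory synapses, neuroligin-2 from inhibitory synapses and neuroligin-3 from both. The LRRTM proteins are leucine-rich-repeat proteins of excitatory postsynaptic membranes that bind neurexins, and LRRTM3 and LRRTM4 also bind heparan sulfate proteoglycans. In the hippocampus, LRRTM4 is known as a protein of the excitatory synapses on dentate granule cells. Oligodendrocyte precursor cells (OPCs) receive synapses from neurons and are known to transcribe many synaptic adhesion genes.

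After filters, 12375 nuclei of the library labelled knockdown were kept out of 16693 barcodes, and 11197 of 12621 in the control library. The nuclei held 77923128 and 35356426 unique molecular identifiers (UMIs, each standing for 1 captured RNA molecule), with medians of 5871 and 2484 per nucleus. Both libraries shared 56 barcodes, 37 of them among the nuclei kept. Nuclei were clustered without the 9 genes and named only from marker genes, so that "granule-like" or "OPC-like" means that the markers of that type led the cluster. The libraries stood apart in makeup. Oligodendrocyte-like nuclei were 16.5% of the library labelled knockdown and 63.2% of the control library, and CA1-like nuclei were 8.11% and 0.170%. Markers of subiculum or cortex, septum and striatum named nuclei too, although the tissue label reads hippocampus. Levels were compared between the libraries in the 7 classes with at least 100 nuclei in each. Bcas2 itself was at 34.6 CPM (scaled UMI counts, defined below) in granule-like nuclei of the library labelled knockdown, against 34.4 in the control library's (log2 ratio 0.01, 95% interval -0.26 to 0.29), and at 46.2 against 41.7 in GABAergic-like nuclei (0.15, -0.29 to 0.61), so that in both neuronal classes Bcas2 RNA differed by less than its counting error. In oligodendrocyte-like nuclei it was higher, at 50.5 against 32.2. So it was in astrocyte-like (35.3 against 14.8), microglia-like (67.7 against 29.5) and fibroblast-like nuclei (51.45 against 22.57). In OPC-like nuclei, at 37.8 against 29.8, it differed by less than its counting error.

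A level below is given in CPM, the UMIs of a gene scaled by all UMIs of the nuclei of a class in 1 library, with an exact 95% Poisson interval. A ratio is the log2 of the knockdown-labelled over the control level, with an exact 95% interval from the same counts. These intervals cover counting error only. With 1 library per group there is no replicate spread and no test of the condition, and each ratio compares these libraries. Levels are not divided by gene length and are compared between classes and libraries, not between genes. Orders of levels, and the words highest and lowest, are over named classes with at least 100 nuclei in that library.

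**Figure D1:**
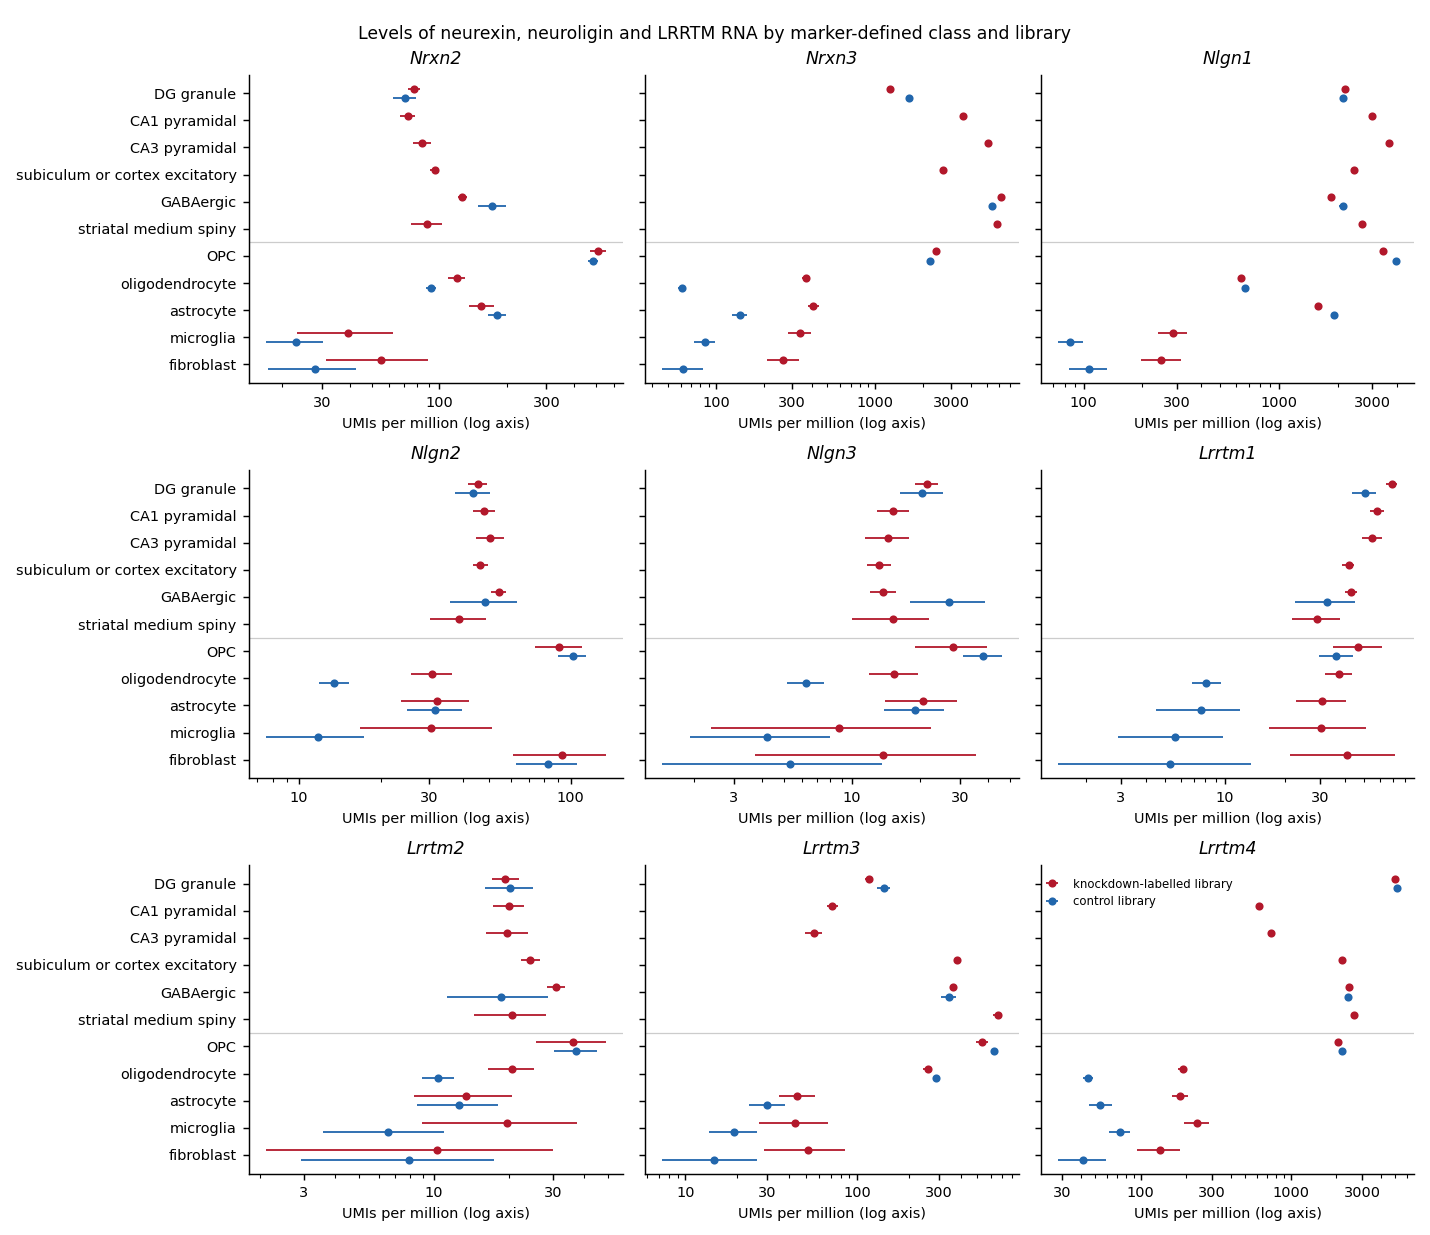
Levels of the 9 genes (CPM, log axis) in classes with at least 100 nuclei in that library, red for the library labelled knockdown and blue for the control library. The Cajal-Retzius (159) and perivascular macrophage nuclei (100) of the control library are not drawn. Points are summed counts, bars are exact 95% Poisson intervals, and the grey line separates neuronal from other classes. Lrrtm4 is highest in DG granule nuclei of both libraries (4934 and 5081), and Nrxn2 is highest in OPC nuclei of both (509.8 and 485.2).

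Nrxn3, the neurexin gene with the widest spread over neurons, was highest in GABAergic-like nuclei of both libraries. Its level there was 6187 CPM (6150 to 6224, 1965 nuclei) in the library labelled knockdown and 5423 (5285 to 5563, 102 nuclei) in the control library. In the library labelled knockdown, striatal medium spiny-like nuclei followed at 5825, CA3-like nuclei at 5108, CA1-like nuclei at 3550, subiculum- or cortex-like excitatory nuclei at 2658 and OPC-like nuclei at 2409, each apart from the next by its interval. Granule-like nuclei had the lowest Nrxn3 level of any neuronal class of that library with at least 100 nuclei, 1230 (1211 to 1249), 5.03-fold below the GABAergic-like nuclei. Among the GABAergic-like nuclei, the 280 nuclei with markers of caudal (CGE-type) interneurons held 10010 (9875 to 10140), the 565 of medial (MGE-type) interneurons 6406 (6337 to 6475), and the 1120 with Zic septal-type markers 5205 (5160 to 5250). The control library held 22, 15 and 65 nuclei of these kinds, at 7561, 4859 and 5112, and the CGE-type nuclei were highest there too.

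Nrxn2 had another pattern: its highest level lay in OPC-like nuclei, outside the neurons. It was 509.8 (468.7 to 553.5) in OPC-like nuclei of the library labelled knockdown, and the next class, astrocyte-like nuclei, was 3.31-fold lower at 154.0. In the control library, OPC-like nuclei held 485.2 (459.5 to 511.9) and astrocyte-like nuclei 180.9, a step of 2.68-fold. The neuronal classes of the library labelled knockdown lay between 72.3 in CA1-like and 126.8 in GABAergic-like nuclei, and within that range the neighbours from subiculum- or cortex-like excitatory nuclei (95.6) down to CA1-like nuclei did not differ beyond their intervals. After each nucleus was thinned to 1000 UMIs, 38.4% of OPC-like nuclei in the library labelled knockdown and 39.1% in the control library kept a Nrxn2 UMI. In microglia-like nuclei, the class with the lowest Nrxn2 level among those with at least 100 nuclei, the thinned shares were 4.07% and 2.27%. Unthinned, at median depths of 3080 and 3966 UMIs, the OPC-like shares were 78.7% and 83.4%.

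Nlgn1, which codes for the neuroligin of excitatory synapses, was at 1584 CPM or above in OPC-like and astrocyte-like nuclei and in every neuronal class with at least 100 nuclei, apart from the Cajal-Retzius-like nuclei of the control library, at 160.0. In the library labelled knockdown its order ran from CA3-like nuclei at 3678 (3628 to 3729) through OPC-like nuclei at 3405 (3297 to 3515), CA1-like nuclei at 2977, medium spiny-like nuclei at 2647, subiculum- or cortex-like nuclei at 2420, granule-like nuclei at 2168 and GABAergic-like nuclei at 1841 to astrocyte-like nuclei at 1584, with each neighbouring pair apart by its intervals. Under a stricter nuclei filter and under a finer clustering, OPC-like nuclei came first. In the control library, OPC-like nuclei were highest at 3964 (3890 to 4039), and granule-like and GABAergic-like nuclei, at 2123 and 2116, did not differ beyond their intervals. MGE-type and CGE-type interneuron nuclei of the library labelled knockdown held less Nlgn1 (1190 and 1406) than Zic septal-type nuclei (2284).

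Nlgn2, the neuroligin gene of inhibitory synapses, varied little over neurons: the 6 neuronal classes of the library labelled knockdown lay between 38.8 (30.4 to 48.9) in medium spiny-like and 54.2 (50.8 to 57.8) in GABAergic-like nuclei. Each interval overlapped that of its neighbour in the order, although GABAergic-like nuclei lay above granule-like nuclei (45.4, 41.8 to 49.2). In the control library, Cajal-Retzius-like nuclei held 73.1 (51.4 to 100.7) and granule-like nuclei 43.6 (37.4 to 50.4). Its highest levels lay outside the neurons, in fibroblast-like nuclei at 92.6 (61.0 to 134.8, 27 UMIs) and OPC-like nuclei at 90.8 (74.0 to 110.3) of the library labelled knockdown. These classes did not differ beyond their intervals, and 7 of the 10 alternatives put OPC-like nuclei first. In the control library, OPC-like nuclei held 101.5 and fibroblast-like nuclei 82.3, again with overlapping intervals. Nlgn3, the neuroligin gene of both synapse kinds, was thinly counted, with 1235 UMIs over all nuclei of the library labelled knockdown and 446 over those of the control library. OPC-like nuclei were highest in both, at 27.9 (18.9 to 39.6) and 37.8 (30.9 to 45.8), but no neighbours in either order were apart by their intervals.

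Lrrtm4 was highest in the granule-like nuclei of both libraries, and it was among the 10 leading genes of their cluster although it had been left out of the clustering. Its level there was 4934 (4896 to 4972, 2006 nuclei) in the library labelled knockdown and 5081 (5013 to 5150, 542 nuclei) in the control library. Pyramidal nuclei of the hippocampus held far less: CA3-like nuclei of the library labelled knockdown were at 735.8 (713.3 to 758.8), 6.71-fold lower than the granule-like nuclei, and CA1-like nuclei at 610.7 (595.4 to 626.4), 8.08-fold lower. The control library held 19 CA1-like and 8 CA3-like nuclei, in which Lrrtm4 was at 41.3 (16.6 to 85.2) and 1619 (1407 to 1853). Markers of other classes were at a median of 28.8% of their library-wide level in CA1-like nuclei of the library labelled knockdown, where the library-wide Lrrtm4 level was 2202, and the part of free RNA in the CA1-like level was not tested. Between these extremes lay medium spiny-like (2649), GABAergic-like (2455), subiculum- or cortex-like (2213) and OPC-like nuclei (2061). The same order of granule-like, GABAergic-like and OPC-like nuclei held in the control library, at 5081, 2411 and 2191. In nuclei thinned to 1000 UMIs, 97.5% of granule-like nuclei of the library labelled knockdown and 97.4% of the control library kept a Lrrtm4 UMI, against 19.9% and 6.05% of microglia-like nuclei, the share taken here as background.

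Lrrtm3, which like Lrrtm4 codes for a protein that binds neurexins and heparan sulfate proteoglycans, was distributed otherwise. It was low in granule-like nuclei, at 116.7 (110.9 to 122.7) in the knockdown-labelled and 142.5 (131.2 to 154.5) in the control library, and lower still in CA1-like (71.8) and CA3-like nuclei (55.9) of the library labelled knockdown. In the few CA1-like and CA3-like nuclei of the control library it was at 11.8 and 246.6, so the place of CA3 in the order was not shared. The highest Lrrtm3 level in the library labelled knockdown was 656.8 (620.4 to 694.7) in medium spiny-like nuclei, followed by 534.0 (491.9 to 578.8) in OPC-like nuclei, 381.9 in subiculum- or cortex-like and 361.8 in GABAergic-like nuclei. In the control library OPC-like nuclei were highest at 630.6 (601.3 to 661.0), and GABAergic-like nuclei held 341.0. Oligodendrocyte-like nuclei also carried it, at 257.5 (242.5 to 273.1) and 286.9 (279.1 to 294.8), which set Lrrtm3 apart from Lrrtm4, at 190.7 and 44.6 in the same nuclei.

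The promoters of these LRRTM genes are shown because Lrrtm4 was highest in granule-like nuclei while Lrrtm3 was low there. Each window runs from 250 bases before to 50 bases after a RefSeq transcription start on GRCm38.p6, which is not the build of the counts (GRCm39, per the submitters' processing notes). The Lrrtm4 window is chr6:80018627-80018926 on the plus strand, the upstream of its 2 annotated starts, and the Lrrtm3 window is chr10:64090206-64090505 on the minus strand. Capitals mark every match, on either strand, to a TATA box written TATAAA, an E-box written as CAGCTG, a second E-box form written as CAGATG, and a GC box written as GGGCGG. No matches overlapped.
Lrrtm4: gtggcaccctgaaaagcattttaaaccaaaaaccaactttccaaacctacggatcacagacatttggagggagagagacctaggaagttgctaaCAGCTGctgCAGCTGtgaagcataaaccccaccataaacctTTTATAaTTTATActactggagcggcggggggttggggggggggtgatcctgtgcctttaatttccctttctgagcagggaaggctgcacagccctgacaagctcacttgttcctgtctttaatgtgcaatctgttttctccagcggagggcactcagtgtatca
Lrrtm3: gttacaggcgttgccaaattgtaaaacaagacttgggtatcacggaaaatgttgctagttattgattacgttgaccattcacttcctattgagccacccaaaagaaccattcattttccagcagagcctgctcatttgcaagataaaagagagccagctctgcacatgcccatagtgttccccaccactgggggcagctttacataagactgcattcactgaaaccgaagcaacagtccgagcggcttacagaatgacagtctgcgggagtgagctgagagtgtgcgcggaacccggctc
The Lrrtm4 window holds CAGCTG, an E-box, at offsets of -156 and -147 bases from the start, and TTTATA, the reverse complement of TATAAA, at -115 and -108. The second Lrrtm4 window holds 1 CAGCTG, and the Lrrtm3 window holds none of the 4. Of the other members with a window, Nlgn2 has 1 CAGCTG and 3 GGGCGG. Lrrtm1, also highest in granule-like nuclei as counted, has 1 GGGCGG but no CAGCTG and no TATAAA. Nlgn1 and Nrxn3 have no CAGCTG and no TATAAA either, and 1 Nrxn3 window holds 1 GGGCGG. Of all 32851 windows of the table, 16.3% hold CAGCTG on either strand, 13.6% hold TATAAA, 17.2% hold CAGATG and 35.7% hold GGGCGG. A match is a match of letters, and nothing in these data measured binding.

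Lrrtm1, which codes for an LRRTM protein of excitatory synapses, was highest in granule-like nuclei of both libraries, at 69.0 (64.5 to 73.6) and 50.3 (43.7 to 57.7), among classes with at least 100 nuclei. In thinned nuclei of the library labelled knockdown, CA3-like nuclei came first, at 72.4 against 57.4 in granule-like nuclei. The few CA3-like and CA1-like nuclei of the control library held 61.7 (26.6 to 121.5) and 53.1 (24.3 to 100.9). CA1-like and CA3-like nuclei of the library labelled knockdown followed at 58.2 and 55.1, and medium spiny-like nuclei were lowest at 29.1. In the control library, Lrrtm1 fell into 2 tiers by cell kind. Granule-like, Cajal-Retzius-like (37.5), OPC-like (36.4) and GABAergic-like nuclei (32.4) made up the upper one, and no other named class with at least 100 control nuclei exceeded 8.09. That step was not present in the library labelled knockdown, where oligodendrocyte-like nuclei held 37.4 and astrocyte-like nuclei 30.8. Lrrtm2 codes for the LRRTM protein best known for binding neurexins at excitatory synapses. It was at 36.0 (25.7 to 49.0, 40 UMIs) and 37.1 (30.25 to 45.03, 102 UMIs) in OPC-like nuclei, the highest levels among classes with at least 100 nuclei. In the library labelled knockdown that interval overlapped the one of GABAergic-like nuclei, at 30.9 (28.4 to 33.7). Granule-like nuclei held 19.3 and 20.1. Newly formed oligodendrocyte-like nuclei, 32 and 72 in number, held more than OPC-like nuclei, at 47.3 (20.4 to 93.1) and 71.6 (49.0 to 101.1), and in the control library the interval lay above that of OPC-like nuclei.

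**Figure D2:**
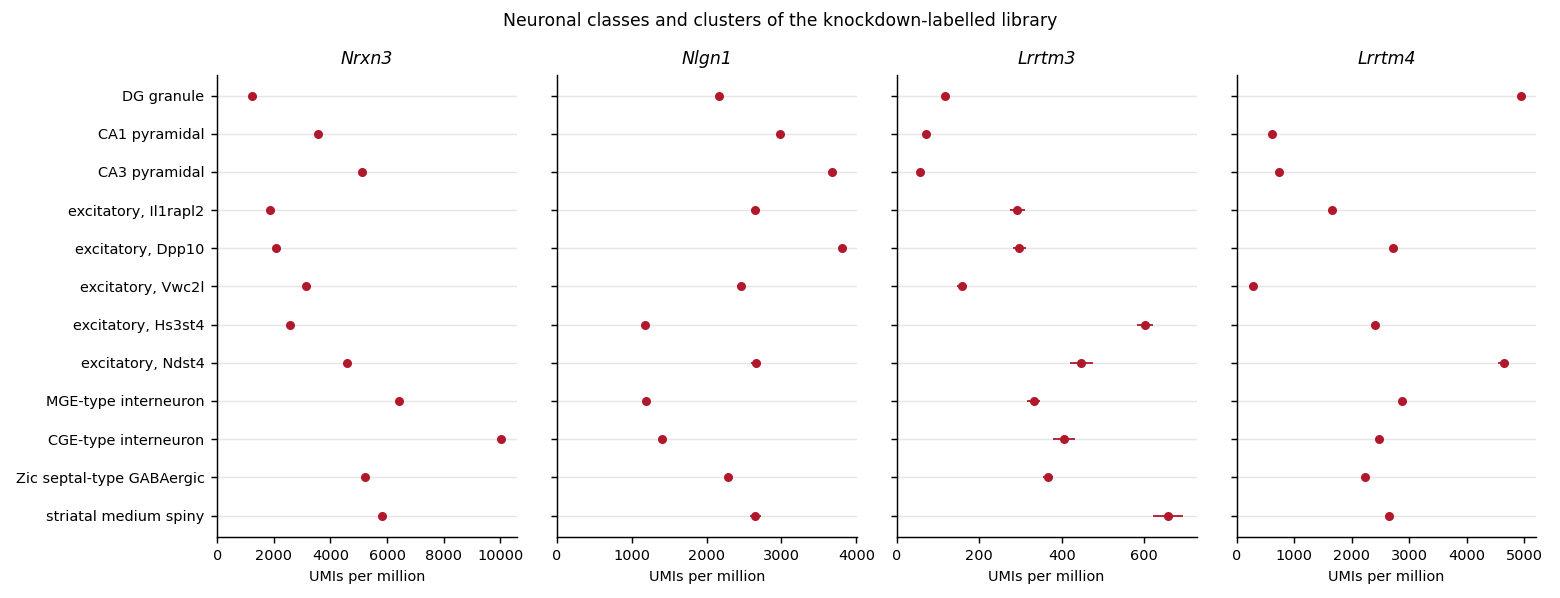
Levels of Nrxn3, Nlgn1, Lrrtm3 and Lrrtm4 (CPM, each axis from 0) in neuronal classes, excitatory clusters named by their leading gene, and GABAergic subclasses of the library labelled knockdown. Points are summed counts and bars exact 95% Poisson intervals. Lrrtm4 runs from 288.5 in the Vwc2l cluster to 4934 in DG granule nuclei, and Nrxn3 reaches 10010 in CGE-type interneuron nuclei.

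The 5 clusters of subiculum- or cortex-like excitatory nuclei differed widely from each other in LRRTM levels. In the library labelled knockdown, Lrrtm4 was at 4639 (4549 to 4729) in the 176 nuclei led by Ndst4, close to the granule-like level, and at 288.5 (271.1 to 306.7) in the 501 nuclei led by Vwc2l. The other clusters lay between, at 1658 (led by Il1rapl2), 2397 (Hs3st4) and 2723 (Dpp10). Lrrtm3 was lowest in the Vwc2l cluster too, at 157.7, but highest in the Hs3st4 cluster, at 601.1 (581.8 to 620.9). Of the 5 clusters, Lrrtm2 was also highest in the Hs3st4 cluster, at 46.95 (41.66 to 52.71), beside 35.96 (25.69 to 48.97) in OPC-like nuclei. Nlgn1 was lowest in that Hs3st4 cluster, at 1173 (1145 to 1200), and highest in the Dpp10 cluster, at 3812 (3754 to 3870). So the excitatory cluster richest in Lrrtm3 was the poorest in Nlgn1. The control library held 4 to 37 nuclei of each of these clusters. There, Lrrtm4 was again highest in the Ndst4 nuclei (6548, 4 nuclei) and lowest in the Vwc2l nuclei (247.8, 37 nuclei), and Nlgn1 was again lowest in the Hs3st4 nuclei (1301, 26 nuclei).

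Between the libraries, the 9 genes were close to each other in granule-like nuclei. None of the 9 was 1.5-fold apart in either direction with at least 50 UMIs, where 9.26% of all 13452 genes with that many UMIs were at least 1.5-fold higher in the library labelled knockdown and 5.72% as far lower. The median ratio of the 9 was 0.03, beside 0.05 over all measured genes. Lrrtm4, the gene highest in these nuclei, was at 4934 against 5081, a ratio of -0.04 (-0.06 to -0.02). Nlgn1 was at 2168 against 2123, a ratio of 0.03 that did not exceed counting error. Nlgn2 (45.4 against 43.6), Nlgn3 (21.4 against 20.3) and Lrrtm2 (19.3 against 20.1) differed by less than their counting error. 

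The members of this group farthest apart in granule-like nuclei were Nrxn3, Lrrtm1 and Lrrtm3. Nrxn3 was at 1230 in the library labelled knockdown, against 1628 (1589 to 1667) in the control library, a ratio of -0.40 (-0.45 to -0.36). Lrrtm3 was at 116.7 against 142.5, a ratio of -0.29 (-0.43 to -0.15). Lrrtm1 was at 69.0 against 50.3, a ratio of 0.45 (0.24 to 0.68), but at -0.18 in thinned nuclei. Thinned nuclei also put Nlgn3 at 1.99, from 51 and 3 UMIs. Intervals that lay wholly below 0, as for Nrxn3, Lrrtm3 and Lrrtm4, were found for 14.0% of all measured genes in these nuclei, and wholly above 0, as for Lrrtm1, for 19.4%. Free RNA, which enters droplets from broken cells, was not measured directly. It was estimated from other classes' markers relative to their library-wide level, which itself depends on the makeup of a library. By this estimate the markers were at a median of 35.6% in granule-like nuclei of the library labelled knockdown and at 19.0% in those of the control library. With that share of the library-wide profile subtracted, Nrxn3 would be at 40.6 and 1465. The part of free RNA in the Nrxn3 difference was not tested.

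In GABAergic-like nuclei, 1 of the 9 genes was at least 1.5-fold higher in the library labelled knockdown and 1 at least 1.5-fold lower, where 13.6% and 11.7% of 14314 measured genes were. These counts rest on 102 control nuclei. Lrrtm2 was the higher one, at 30.9 (28.4 to 33.7, 532 UMIs) against 18.5 (11.3 to 28.6, 20 UMIs), a ratio of 0.74 (0.10 to 1.46). Nlgn3 was the lower one, at 13.7 (236 UMIs) against 26.9 (29 UMIs), a ratio of -0.97 (-1.53 to -0.36). In nuclei thinned to 1000 UMIs these ratios were 0.38 and -0.40, under 1.5-fold, from 2 control UMIs each. In the Zic septal-type cluster alone, 1120 against 65 nuclei, they were 0.79, with an interval that included 0, and -1.06 (-1.70 to -0.36). Nrxn2 was at 126.8 against 172.4, a ratio of -0.44 (-0.66 to -0.22), and Nrxn3 at 6187 against 5423, a ratio of 0.19 (0.15 to 0.23). Within the Zic septal-type cluster the Nrxn3 ratio was 0.03 (-0.02 to 0.07). That cluster held 1120 of the 1965 GABAergic-like nuclei in the knockdown-labelled and 65 of the 102 in the control library. Lrrtm3 (361.8 against 341.0) and Lrrtm4 (2455 against 2411) differed by less than their counting error over the whole class. In the Zic septal-type cluster alone, Lrrtm3 was at 367.4 against 315.2 (0.22, 0.03 to 0.42), Lrrtm4 at 2231 against 1998 (0.16, 0.08 to 0.24) and Lrrtm1, past 1.5-fold there, at 41.1 against 21.7 (0.92, 0.20 to 1.74, 16 control UMIs).

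In OPC-like nuclei, as counted, 0 of the 9 genes were 1.5-fold apart, where 11.3% of 9484 measured genes were higher and 5.94% lower. Nrxn2 was at 509.8 against 485.2, Nrxn3 at 2409 against 2219 and Lrrtm4 at 2061 against 2191. Nlgn1 was at 3405 against 3964, a ratio of -0.22 (-0.27 to -0.17), and Lrrtm3 at 534.0 against 630.6, a ratio of -0.24 (-0.38 to -0.10). A list of 11 neuronal genes (such as Syt1, Snap25 and Slc17a7) was summed beside these, as a marker of neuronal RNA. It was at 1775 against 807.0 in OPC-like nuclei, with 7 of its 9 measured genes at least 1.5-fold higher. With free RNA subtracted at its median share, members came to lie more than 1.5-fold lower in the library labelled knockdown: Nrxn3 at 598.3 against 1954, Lrrtm4 at 866.1 against 1882, Nlgn1 at 2186 against 3568, Nlgn3 at 19.3 against 33.9 and Lrrtm1 at 19.8 against 30.9. Nrxn2, at 453.4 against 446.8, did not. The amount taken off can exceed the level counted. In oligodendrocyte-like nuclei, Nrxn3 was counted at 366.3 and 61.1, and the same subtraction left 0 in both libraries. Whether it takes off too much in OPC-like nuclei was not tested.

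**Figure D3:**
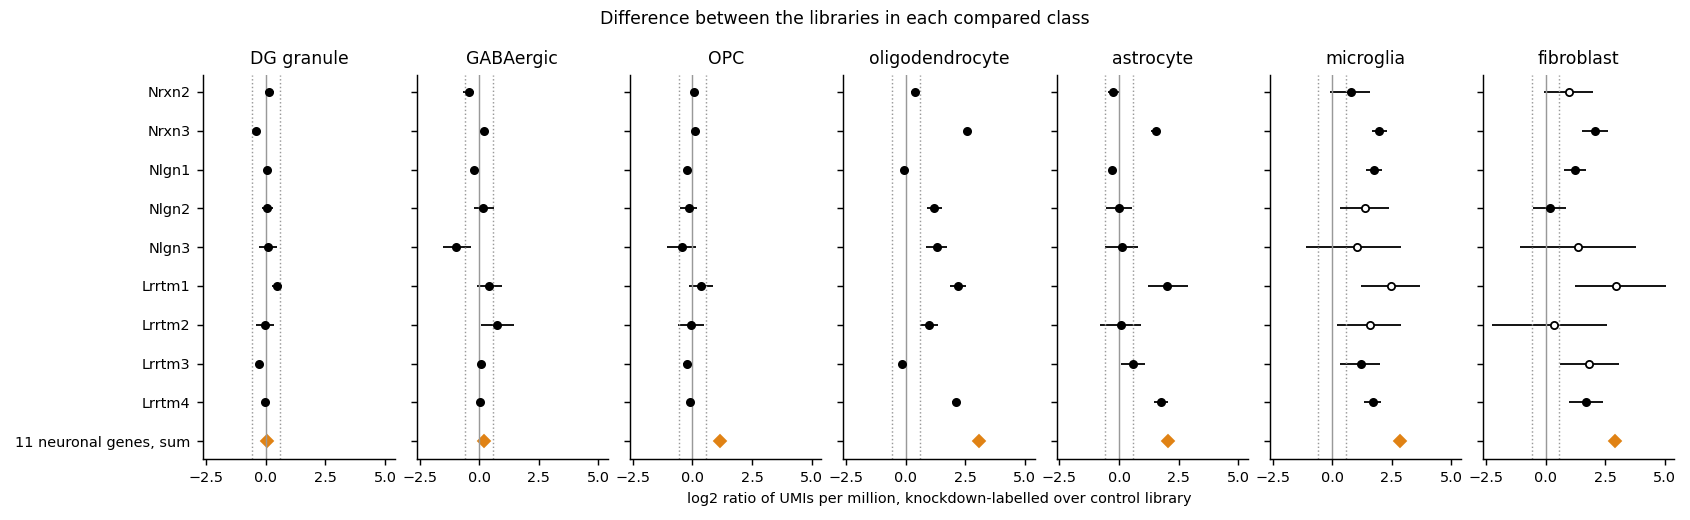
Log2 ratios of the knockdown-labelled over the control library for the 9 genes in the 7 compared classes, with exact 95% counting intervals. Open points have fewer than 50 UMIs, dotted lines mark 1.5-fold, and the orange diamond is the ratio of the summed 11 neuronal genes. In oligodendrocyte nuclei the diamond lies at 3.08 and Nrxn3 at 2.58, while Nlgn1 lies at -0.06 and Lrrtm3 at -0.16.

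In the remaining non-neuronal classes, every measured member past 1.5-fold was higher in the library labelled knockdown. These were 6 of 9 measured genes in oligodendrocyte-like, 4 of 9 in astrocyte-like, 5 of 5 in microglia-like and 3 of 4 in fibroblast-like nuclei. With the OPC-like nuclei, where 0 of 9 were past 1.5-fold, 18 of 36 measured values were higher and 0 lower. Over all measured genes of these 5 classes, the share higher ran from 11.3% (OPC-like) to 24.7% (oligodendrocyte-like). The share lower ran from 5.94% (OPC-like) to 14.5% (fibroblast-like). In oligodendrocyte-like nuclei 6 of the 9 genes were higher, where 24.7% of 13538 measured genes were higher and 7.41% lower. Nrxn3 was at 366.3 (348.4 to 384.8) against 61.1 (57.5 to 64.8), a ratio of 2.58, Lrrtm1 at 37.4 against 8.09, a ratio of 2.21, and Lrrtm4 at 190.7 against 44.6, a ratio of 2.10. Nlgn3 (1.30), Nlgn2 (1.20) and Lrrtm2 (0.98) were the others. The 11 neuronal genes were higher beside them: their sum was 1760 against 208.9, 11 of 11 were at least 1.5-fold higher, and none was at 0 in either library. Nlgn1 (643.1 against 669.5), Lrrtm3 (257.5 against 286.9) and Nrxn2 (120.0 against 92.0) stayed under 1.5-fold in the same nuclei.

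Astrocyte-like nuclei shared 3 of these 6 genes, Nrxn3, Lrrtm1 and Lrrtm4, and added Lrrtm3. Nrxn3 was at 408.6 against 141.2 (ratio 1.53), Lrrtm1 at 30.8 against 7.59 (2.02), Lrrtm4 at 183.5 against 54.0 (1.77) and Lrrtm3 at 44.9 against 29.9 (0.58), 4 of 9 genes higher, where 14.1% of 9579 measured genes were higher and 6.10% lower. Nlgn1 and Nrxn2, which astrocyte-like nuclei carried at high levels in both libraries, were at 1584 against 1921 (-0.28) and at 154.0 against 180.9 (-0.23). Nlgn2 (32.1 against 31.6), Nlgn3 (20.5 against 19.0) and Lrrtm2 (13.5 against 12.7) differed by less than 1.5-fold. The neuronal genes summed to 1596 against 387.9, with 10 of 11 higher. In microglia-like nuclei 5 of the 5 measured genes were higher, by 0.78 (Nrxn2) to 1.98 (Nrxn3), where 15.9% of 8133 measured genes were higher and 11.4% lower, and the neuronal genes summed to 2033 against 279.7. In fibroblast-like nuclei 3 of 4 were higher, where 11.4% of 4637 genes were higher and 14.5% lower, and Nlgn2, at 92.6 against 82.3, was not; the neuronal sum was 1708 against 225.7. With free RNA subtracted at its median share, Nrxn3 and Lrrtm4 came to 0 in the oligodendrocyte-, astrocyte-, microglia- and fibroblast-like nuclei of both libraries. Nlgn1 came to 280.8 against 1590 in astrocyte-like nuclei and to 0 against 386.5 in oligodendrocyte-like nuclei. Its near-equal levels as counted did not hold under the subtraction. Levels that fell below 0 were set to 0, so a 0 here can mean that more was taken off than was counted.

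**Figure D4:**
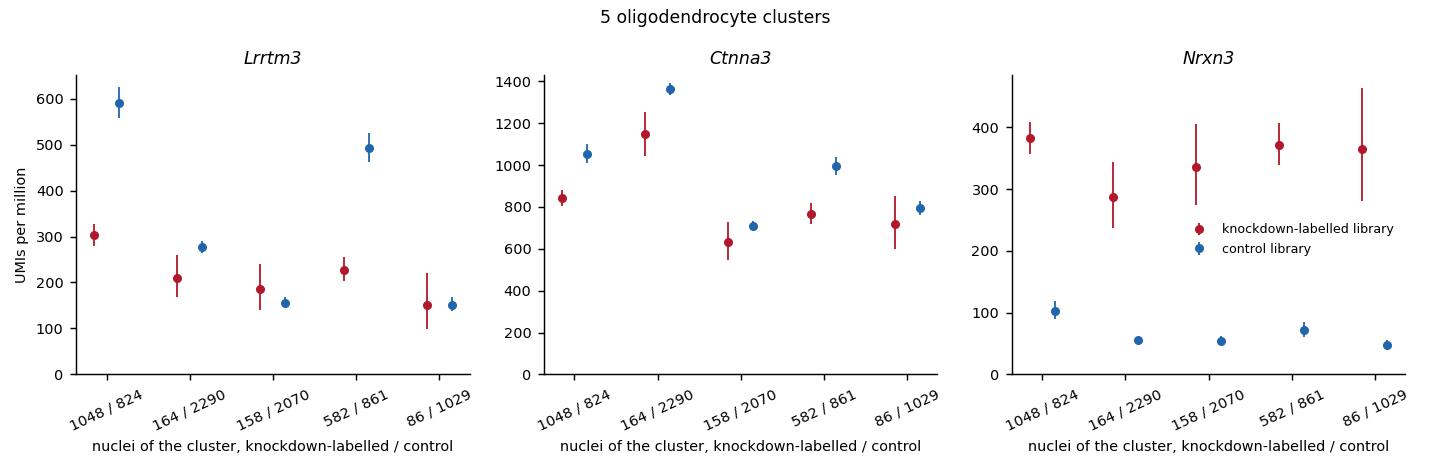
Levels of Lrrtm3, Ctnna3 (the gene whose opposite strand holds Lrrtm3) and Nrxn3 in the 5 oligodendrocyte clusters, in CPM from 0, with exact 95% Poisson intervals and the number of nuclei of each library under each cluster. Lrrtm3 is lower in the library labelled knockdown (red) in the clusters of 1048 / 824 and 582 / 861 nuclei, while Nrxn3 is higher in all 5.

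The even level of Lrrtm3 over oligodendrocyte-like nuclei covered differences between their clusters. In the cluster with 1048 and 824 nuclei, Lrrtm3 was at 302.3 (279.6 to 326.4) in the knockdown-labelled and 590.9 (557.4 to 626.0) in the control library. In the cluster with 582 and 861 nuclei it was at 228.1 (202.3 to 256.2) and 492.9 (463.1 to 524.1). Itgad was among the 2 leading genes of each, and together they gave a ratio of -0.97 (-1.09 to -0.86), against -0.16 (-0.25 to -0.06) over the whole class. This pair, the clusters with at least 500 nuclei in each library, was chosen after the values were seen. In the clusters of 158 and 2070 nuclei and of 86 and 1029 nuclei, which include Il33 among their leading genes, Lrrtm3 was at 185.3 against 156.4 and at 151.4 against 151.9. In the fifth, of 164 and 2290 nuclei, it was at 210.4 against 277.6. The Itgad pair made up 1630 of 2038 such nuclei of the library labelled knockdown, against 1685 of the 7074 of the control library. Nrxn3 was higher in the library labelled knockdown in all 5 clusters, from 287.1 to 382.3 against 47.2 to 103.0.

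Lrrtm1, Lrrtm2 and Lrrtm3 each lie inside an alpha-catenin gene, on its opposite strand, in the GENCODE vM21 annotation: Lrrtm1 in Ctnna2, Lrrtm2 in Ctnna1 and Lrrtm3 in Ctnna3. No source used here gives the strand setting of the counting, so reads of host and guest could be assigned to each other if it was off. Over the 11 classes of the library labelled knockdown with at least 100 nuclei, log2 levels of Lrrtm3 and Ctnna3 had a Pearson r of 0.90, Lrrtm1 and Ctnna2 0.25, and Lrrtm2 and Ctnna1 -0.57. The classes share 1 library and its free RNA. Ctnna3 was at 829.1 against 1033 in oligodendrocyte-like nuclei, and in the cluster of 1048 and 824 nuclei at 843.1 against 1055, a smaller step than that of Lrrtm3. Lrrtm4 overlapped 8 other annotated genes on its own strand. The 3 genes most like Lrrtm4 over the 11 classes, of 14531 ranked, were Gm20371 (r 0.99), Gm44229 (0.98) and Gm44242 (0.97), and all 3 lie within Lrrtm4 on its strand, as does Gm48700, the second most like Nrxn3 (0.97), within Nrxn3. For the others the most alike genes were Car8 for Nrxn2 (0.96), Gm43662 for Nrxn3 (0.97), Gm43517 for Nlgn1 (0.99), Msrb3 for Nlgn2 (0.95), Gpnmb for Nlgn3 (0.91), Lurap1l for Lrrtm1 (0.90), Agbl1 for Lrrtm2 (0.93) and Lrch2 for Lrrtm3 (0.94). Among the members themselves, r ran from -0.10 (Lrrtm1 and Lrrtm3) to 0.83 (Nrxn3 and Nlgn1).

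The partners of these proteins were followed as 78 further synaptic organizer genes: secreted neurexin ligands, glutamate delta receptors, the MDGA inhibitors of neuroligins, glypicans, receptor phosphatases with their ligands, latrophilins with FLRT proteins and teneurins, other adhesion proteins, scaffolds and splicing regulators of neurexins. In granule-like nuclei, 7 of the 67 measured genes were at least 1.5-fold higher in the library labelled knockdown and 0 lower, beside 9.26% and 5.72% of all genes, and their median ratio was 0.09 beside 0.05. Khdrbs3, whose product SLM2 regulates neurexin splicing, was at 63.0 (828 UMIs) against 23.7 (98 UMIs), a ratio of 1.41 (1.11 to 1.73). Clstn3, which codes for the neurexin-binding calsyntenin-3, was at 69.3 against 40.4 (0.78), and Mdga1, which codes for a protein that blocks neuroligins, at 30.5 against 18.9 (0.69). Cntnap4, a contactin-associated protein gene of the neurexin superfamily, had a ratio of 3.12 from 111 and 4 UMIs. Adgrl2 (a latrophilin, 0.92), Flrt1 (a latrophilin ligand, 0.86) and Lrfn3 (a postsynaptic adhesion protein, 0.71) were the other 3, each under 20 CPM. Scaffold genes stayed level, with 0 of 16 past 1.5-fold. Of the genes counted beside the organizers in these nuclei, Stmn2 (2.05) and Nefl (0.73) of the neuronal list were higher, Ctnna1 (-0.60) was lower, and the myelin genes Mbp (-1.40), Cldn11 (-2.09), Mog (-2.34), Mag (-2.70) and Mobp (-2.85) were lower.

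In GABAergic-like nuclei, 5 of 73 measured organizer genes were higher and 7 lower, beside 13.6% and 11.7% of all genes. Ptprd, a receptor phosphatase gene that binds many postsynaptic partners, was at 1432 against 2481 (-0.79), its partner Il1rap at 81.3 against 150.1 (-0.88), and Cntnap2 at 2528 against 3858 (-0.61). The other 4 lower genes rested on 18 or fewer control UMIs each, and the intervals of C1ql1 and Lrfn3 included 0: the secreted Tafa4 (-2.08), C1ql1 (-1.03) and Cbln2 (-0.81), and Lrfn3 (-0.60). Lrrc4, which codes for the netrin-G ligand NGL-2, was higher at 67.9 against 41.7 (0.70). Nxph2 (1.49), C1ql2 (1.35), Gpc4 (1.10) and Lin7b (0.89) were the other 4 higher ones, with 3 to 17 control UMIs, and the intervals of the first 3 included 0. Slc17a7, a marker of excitatory neurons, was also higher in these nuclei at 65.9 against 17.6 (1.90), as was Nefl (1.33), and the myelin genes Mbp (-2.64), Cldn11 (-2.69), Mag (-2.76), Mog (-2.79) and Mobp (-3.05) were lower. In OPC-like nuclei 9 of 61 organizer genes were higher and 3 lower, beside 11.3% and 5.94% of all genes. In oligodendrocyte-like nuclei 48 of 68 were higher and 2 lower, beside 24.7% and 7.41%, and in astrocyte-like nuclei 21 of 53 and 1, beside 14.1% and 6.10%. In microglia-like nuclei the counts were 22 of 37 and 2, beside 15.9% and 11.4%, and in fibroblast-like nuclei 11 of 31 and 0, beside 11.4% and 14.5%. The neuronal genes were higher in these 5 classes, as given above. The part of neuronal and myelin RNA in these differences was not tested.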

How the data were processed

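Nuclei of 2 hippocampal libraries, 1 per group, were analysed. What the authors deposited are unnormalized UMI counts for each gene in each barcode. Cell Ranger 9.0.1 made them, per the file headers. Seurat 4.1.0, bcl2fastq 5.0.1 and the build GRCm39 are named in the submitters' processing notes. Neither the strand setting nor whether intronic reads were counted is stated in any source used here. Per the labels' protocols, nuclei stained with propidium iodide were sorted by flow cytometry. No column belonged to another sample.

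From the counts on, the work was done in Python 3.11.15. Clustering used scanpy 1.11.5 with igraph 0.11.9 and scikit-learn 1.9.0, and intervals used scipy 1.17.1. Tables were handled with pandas 2.3.3 and numpy 2.4.6. TMM factors came from edgeR 4.0.16 (R 4.3.3), which ran no test. Nuclei had at least 500 genes, at least 800 UMIs and at most 5% mitochondrial UMIs. Scrublet marked 1057 doublets (6.33%) in the library labelled knockdown. Its automatic threshold marked 0% in the control library, where the top scores at the expected rate were removed instead (1353, 10.7%). Both libraries were clustered together, without integration, from 2000 variable genes, 30 principal components and 15 neighbours at Leiden resolution 1. The 9 genes, Bcas2, mitochondrial and sex-linked genes were left out of the variable genes.

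The 33 clusters were named by the highest mean log2 fold of 220 markers in 24 lists relative to the median over all other clusters (5 CPM added), and 5 stayed unnamed. After a first clustering had been seen, 4 lists of subiculum and cortex were merged and shallow clusters with under 3 own markers among their top 10 genes were left unnamed. A gene counted as measured with at least 50 UMIs over both libraries of a class, and as higher or lower at 1.5-fold with 0.5 UMI added. Thinned nuclei were drawn to 1000 UMIs. Free RNA was estimated as the median, over markers of other classes, of the level in a class relative to the whole library. It was taken from the nuclei kept, not from empty droplets. The lower quartile was used as a smaller amount. A level that fell below 0 after the subtraction was set to 0. The procedure for ratios was checked on simulated counts.

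Genes named beside the 9 were those of the organizer, host, neuronal and myelin lists at least 1.5-fold apart in granule-like or GABAergic-like nuclei, up to 20 per class, and the genes most alike over classes by Pearson r of log2(CPM + 1), among genes with at least 200 UMIs. A myelin gene of these lists is not reported here. The members and lists were chosen with earlier results of these data known. The alternatives were other filters, doublets kept, clustering resolutions of 0.5 and 2, centred libraries, TMM scaling, means over nuclei, thinning, free RNA subtraction and other UMI minimums.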

Additional observations from a re-analysis of the deposited data

How the results depend on the processing

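No paired analysis was possible because each group has 1 library. Of 568 single-gene ratios under the alternatives, 467 stayed within the counting interval, 99 moved beyond it and 2 were labelled reversed. Ratios with both levels at 0 after subtraction could not be formed and are not among them. The free RNA median left 41 ratios and its lower quartile 46, where TMM scaling gave 54. That label was open only to ratios at least 1.5-fold apart as counted. Other ratios that changed sign were not labelled reversed, such as Lrrtm1 in thinned granule-like nuclei and Nrxn3 in OPC-like nuclei with the free RNA median subtracted. Of the 2 labelled reversed, Nrxn3 in astrocyte-like nuclei came to -6.80 with free RNA subtracted at its lower quartile. Its level in the library labelled knockdown was set to 0 there, so the size of that ratio rests on the 0.5 UMI added. Lrrtm1 in astrocyte-like nuclei came to -0.48 with the median subtracted. In neurons, 1 of 18 values was higher and 1 lower, beside 9.26% to 13.6% and 5.72% to 11.7% of all measured genes per class. With centred libraries, which left granule-like nuclei as the only neuronal class compared, these counts were 0 and 0. Thinned nuclei gave 2 and 0, the free RNA median 0 and 6, and its lower quartile 0 and 5. In glia and fibroblasts, 18 were higher and 0 lower, beside 11.3% to 24.7% and 5.94% to 14.5% of all measured genes per class. The higher count was 10 with centring (3 classes left), 10 with a minimum of 200 UMIs, 2 with the free RNA median and 9 with its lower quartile. The lower count was 11 and 5 under these subtractions. The organizer genes in neurons, 12 higher and 7 lower, came to 7 and 0 with centring, 2 and 59 with the free RNA median, 1 and 33 with its lower quartile, and 6 and 3 with 200 UMIs. Their lower count was 16 in thinned nuclei and 13 with no minimum. In glia, 111 higher and 8 lower came to 17 and 112 with the free RNA median and to 58 and 46 with its lower quartile. The higher count was 228 with no minimum and 52 with 200 UMIs, and the lower count 4 with centring. The cause of these changes was not tested, beyond the fewer classes and genes that centring, the minimums and the free RNA subtractions leave.

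The highest class was the same for 7 to 9 of the 9 genes in the library labelled knockdown and for 8 or 9 in the control library. The Zic cluster alone and the pair of oligodendrocyte clusters were added after seeing the data. Counts limit Nlgn3, Lrrtm1 and Lrrtm2 most, since thinned GABAergic-like control nuclei held 1 or 2 UMIs of each.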

Other observations

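Small and unnamed clusters held levels of the 9 genes that belong in no comparison above. A cluster of 65 nuclei in the library labelled knockdown and 54 in the control library, with Syt6, Gpr149, Drd3 and Isl1 among its leading genes, had Nrxn3 at 6476 and 6418 CPM, at or above the GABAergic-like level, but Lrrtm4 at 492.2 and 124.1. Its Nlgn1 level was 1127 and 877.6. A cluster led by Ebf2 and Ebf3, with 112 and 23 nuclei, had Nrxn3 at 2656 and 3595.

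Cajal-Retzius-like nuclei (68 and 159), neurons that secrete reelin, held less of 3 genes than granule-like nuclei did in either library: Nrxn3 was at 390.8 and 150.1, Nlgn1 at 407.3 and 160.0 and Lrrtm4 at 484.3 and 272.5. Newly formed oligodendrocyte-like nuclei (32 and 72) had Nlgn1 at 1276 and 1703, above the 643.1 and 669.5 of oligodendrocyte-like nuclei, and Lrrtm4 at 484.3 and 572.9, above 190.7 and 44.6. These lie between the oligodendrocyte-like and OPC-like levels of both genes in both libraries.

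An unnamed shallow cluster, with a median of 1031 UMIs per nucleus over 851 nuclei and 2086 over 49 nuclei, had Nrxn3 at 2377 in the library labelled knockdown and 14160 in the control library. Another unnamed cluster of 23 and 86 nuclei had Lrrtm4 at 188.8 and 1206. No cause was tested for these differences.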
